A study of Mus musculus with 36 samples.

Results

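The nuclear genes of the mitochondrial respiratory chain were followed through single-nucleotide maps of 2 kinds of DNA lesion. The genes were taken by symbol from the RefSeq annotation of the mouse genome build GRCm38, as autosomal protein-coding genes that begin with Nduf, Uqcr, Cox4 to Cox8 or Atp5, or are one of Sdha to Sdhd. This gave 93 of 20665 autosomal protein-coding genes, by a rule that uses no lesion value. Another 3 genes that meet the symbol rule lie on a sex chromosome and were left out. The 93 genes comprise 7 core subunits, 30 accessory subunits and 8 assembly factors of complex I, 4 subunits of complex II, 8 of complex III, 19 of complex IV and 17 of complex V.

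The maps were made from 6 tissues (bone marrow, brain, heart, liver, peripheral blood mononuclear cells or PBMCs, and motile sperm) of 2 male C57BL/6J mice aged 24 months. Each tissue sample gave a library of single-strand breaks (SSBs), nicks in one strand of the double helix, and a library of apurinic/apyrimidinic sites (AP sites), sugars that have lost their base, so that there were 12 libraries per lesion. All animals were of one sex, age and strain, with no treatment and no younger group here, and the comparisons are therefore between genes, tissues, gene regions and lesions. Each library pools the DNA of all cells of a tissue, and a change in the mix of cells cannot be told apart from a change within cells.

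The respiratory chain sits in the inner mitochondrial membrane. Complexes I and II pass electrons from NADH and succinate to ubiquinone, complex III passes them to cytochrome c, complex IV reduces oxygen to water, and complex V is the ATP synthase driven by the resulting proton gradient. Most of the subunits are encoded in the nucleus, expressed in nearly every cell type and most strongly in tissues such as heart muscle, while some have isoforms of restricted expression.

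The lesions of these genes were densest per kb around the gene start, and 4 promoters are printed to show where single lesions fell. They are those with the most lesion positions among the 10 genes of the list whose density near the start passed the test in both lesions (below). Each sequence is from RefSeq (build GRCm38.p6), runs from 250 bases before to 50 bases after the annotated start and is written along the strand of the gene, which is the minus strand for these 4. Capitals mark every base with an SSB in any of the 12 SSB libraries. The first lines are Ndufa10 (chr1:92473709-92474008), an accessory subunit of complex I, and Ndufb6 (chr4:40279372-40279671), another. Ndufb1 (chr12:101975689-101975988) is also an accessory subunit of complex I, and Atp5md (chr19:47090598-47090897) is a small subunit of the ATP synthase.
Ndufa10 SSB: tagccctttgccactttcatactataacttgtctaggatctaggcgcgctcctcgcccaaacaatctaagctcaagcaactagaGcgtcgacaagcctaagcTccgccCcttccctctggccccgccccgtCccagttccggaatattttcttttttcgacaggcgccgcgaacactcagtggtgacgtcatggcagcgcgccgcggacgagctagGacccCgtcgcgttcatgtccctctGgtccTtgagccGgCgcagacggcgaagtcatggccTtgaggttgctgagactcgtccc
Ndufb6 SSB: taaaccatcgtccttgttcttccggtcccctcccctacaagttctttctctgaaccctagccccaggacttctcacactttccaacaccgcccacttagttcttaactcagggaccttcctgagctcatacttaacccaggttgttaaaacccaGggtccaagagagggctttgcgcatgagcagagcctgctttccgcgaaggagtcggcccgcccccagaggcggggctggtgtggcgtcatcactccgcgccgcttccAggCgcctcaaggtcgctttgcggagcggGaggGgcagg
Ndufb1 SSB: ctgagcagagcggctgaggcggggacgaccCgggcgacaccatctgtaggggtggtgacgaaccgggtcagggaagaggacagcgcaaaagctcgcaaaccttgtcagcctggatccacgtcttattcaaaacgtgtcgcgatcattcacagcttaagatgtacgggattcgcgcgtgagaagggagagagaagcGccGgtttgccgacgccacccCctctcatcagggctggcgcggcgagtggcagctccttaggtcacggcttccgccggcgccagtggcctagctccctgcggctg
Atp5md SSB: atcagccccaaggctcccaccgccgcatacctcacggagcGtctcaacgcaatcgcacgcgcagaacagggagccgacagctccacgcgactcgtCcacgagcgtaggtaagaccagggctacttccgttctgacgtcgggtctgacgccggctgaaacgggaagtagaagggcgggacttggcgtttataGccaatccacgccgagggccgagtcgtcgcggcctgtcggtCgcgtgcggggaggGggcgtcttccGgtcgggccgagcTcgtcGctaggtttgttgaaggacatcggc
The Ndufa10 promoter carried 11 SSB positions, 7 on the strand of the gene and 4 on the other. The promoters of Ndufb6, Ndufb1 and Atp5md carried 5, 5 and 8, and in Ndufb1 the 5 positions fell on 4 bases. The same Ndufa10 promoter is given again with capitals at its 9 AP sites, for comparison between the lesions.
Ndufa10 AP: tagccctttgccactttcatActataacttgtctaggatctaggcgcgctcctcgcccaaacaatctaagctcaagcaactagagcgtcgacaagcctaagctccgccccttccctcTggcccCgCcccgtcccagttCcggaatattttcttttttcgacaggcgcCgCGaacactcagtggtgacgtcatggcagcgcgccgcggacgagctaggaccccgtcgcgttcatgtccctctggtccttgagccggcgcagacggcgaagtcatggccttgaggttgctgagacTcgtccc
No base is a capital in both lines. With 11 and 9 marked bases in a promoter of 300, little overlap is likely even for unrelated positions, and this was not tested.

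Across the 75 genes of the list with a promoter sequence, 328 SSB and 277 AP positions were read base by base along the strand that each record lists. The sources used here do not say whether the listed strand is the damaged strand or the strand read. At SSB positions 39.9% of bases were G and 37.8% C, against 28.9% of each in the promoters themselves, and the base 1 before was C in 59.8%. AP positions had G in 41.5% and A in 33.6%, while T stood at 5.42%. The promoters of all 16457 autosomal protein-coding genes with a sequence gave much the same picture. Their SSB positions were preceded by C in 56.9%, and their AP positions were G in 37.7% and A in 36.8%. At least 1 SSB position lay in 73 of the 75 promoters (97.3%, against 79.3% of all promoters), with a median of 4 positions against 2. AP sites were found in 74 of the 75 (98.7%, against 81.3%), again with a median of 4 against 2.

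These promoters also differ in their letters from other promoters. A promoter was called CpG-rich where its GC content was at least 50% and its observed over expected CpG count at least 0.6, and 58 of the 75 (77.3%) met both, against 7777 of the 16457 (47.3%). The letters GCGCATGC, the core of the motif of NRF1, a regulator of nuclear genes for mitochondrial proteins, were read in either orientation in 12 of the 75 promoters (16.0%), against 3.66% of all. The letters CCGGAAG, bound by ETS family factors such as GABP, were found in 18 (24.0%), against 12.3%, with each motif counted on its own, and at least one of the motifs in 25 (33.3%), against 15.2%. The TATA box letters TATAAA were found in 8 (10.7%), against 13.5%. The 4 promoters printed above have no GCGCATGC. Ndufb6 and Atp5md have CCGGAAG in one of the orientations, and Atp5md has TATAAA read on the opposite strand.

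Summed over their whole windows, the respiratory chain genes carried slightly fewer lesions than other genes of their length, though for SSBs the mean over genes of this ratio was 1.0 (0.967 for AP sites). Density is the number of lesion positions in a gene and 1 kb on each side, each position counted once, per kb of that window and per 1000000 positions of the library. The libraries held 225011 to 1041983 SSB positions (median 410489) and 460719 to 963258 AP positions (median 739741). Over the 93 windows, 1350 kb in all, 4666 SSB and 6635 AP positions were counted, with 1 to 296 SSB and 4 to 544 AP positions per gene. The windows of 56 of the 93 genes overlap another protein-coding gene, and a position in the overlap counts for both. The SSB density was 0.622 ± 0.069 (SD, n = 12 libraries), against 0.691 ± 0.063 in protein-coding genes with a window close in length to that of each member (genes of similar length). Genes of the list ran from 471 to 106064 bp with a median of 7394 bp, shorter than the median of 17491 bp over all protein-coding genes, which is why length was matched. The ratio was 0.815 in the lowest library, 0.898 at the median and 1.0 in the highest, and it lay below 1 in 11 of the 12. For AP sites the density was 0.556 ± 0.027 against 0.641 ± 0.034, with a ratio from 0.808 through a median of 0.866 to 0.933, below 1 in all 12 libraries. These ratios were not tested, and they weight each gene by its length. Set against the sequence 10 to 60 kb outside each window instead, SSBs stood at 1.28 and AP sites at 1.18, so the direction depends on the comparison. Counted gene by gene, 52 of the 93 genes (55.9%) lay below the genes of their length in SSBs, close to the 53.1% of other protein-coding genes, and 57 (61.3%) in AP sites, against 51.3%.

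**Figure D1:**
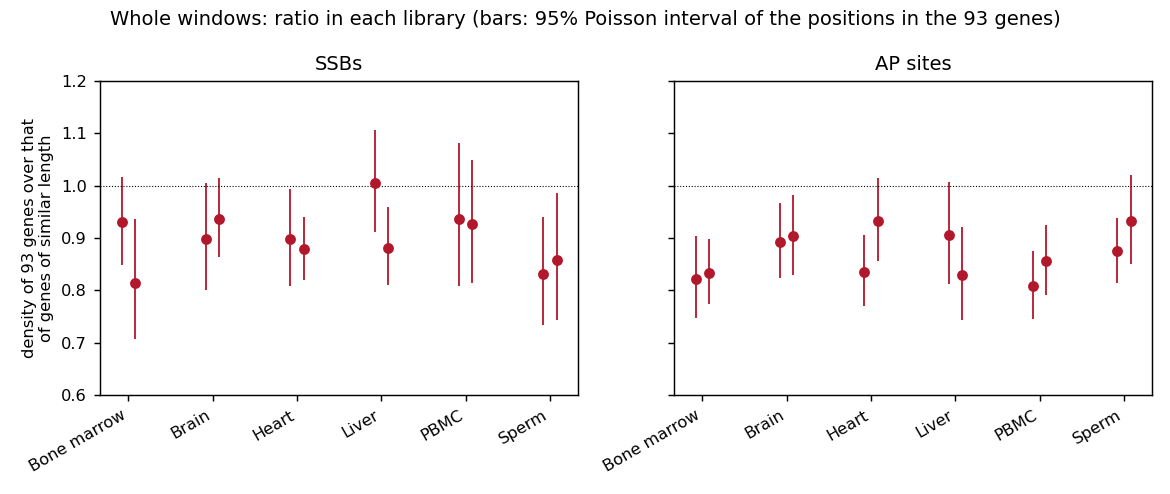
Density of lesion positions in the 93 respiratory chain genes divided by that in genes of similar length, by tissue, with 1 point per library and a dotted line at 1. Bars give the 95% Poisson interval of the positions counted in the 93 genes. The AP points lie between 0.808 and 0.933, and 1 SSB library reaches 1.0.

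Complex IV stood lowest of the complexes in both lesions, and 1 long gene had a large part in it. The 19 genes, most of them subunits of cytochrome c oxidase, had 0.780 ± 0.127 (SD, n = 12) of the SSB density of genes of similar length and 0.708 ± 0.053 of the AP density, below 1 in 11 and 12 of the 12 libraries. Without Cox7b2, a testis isoform gene of 105383 bp, the other 18 genes were at 0.914 ± 0.121 and 0.832 ± 0.077, below 1 in 10 and 12 libraries. The accessory subunits of complex I were at 0.963 ± 0.10 in SSBs and 0.924 ± 0.069 in AP sites, the core subunits at 0.899 ± 0.166 and 0.849 ± 0.141, and the assembly factors at 0.888 ± 0.112 and 0.906 ± 0.083. Leaving out Ndufs4 and Ndufaf2, the other genes over 50 kb, moved the accessory subunits to 1.0 ± 0.11 and 0.988 ± 0.074 and the assembly factors to 0.854 ± 0.106 and 0.785 ± 0.103. The SSB ratio was 0.827 ± 0.237 in complex II, 0.921 ± 0.155 in complex III and 0.942 ± 0.091 in complex V, and the AP ratios there were 0.909 ± 0.169, 0.859 ± 0.146 and 0.915 ± 0.089. Once these long genes are left out, complex IV is no longer lowest. Complex II, the assembly factors and the core subunits are then lower in SSBs, and the assembly factors are lower in AP sites. The SDs of all groups then overlap in SSBs, and in AP sites those of the accessory subunits lie above those of the assembly factors and of complex IV.

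The genes ranged widely in their single values. In a short gene most of the window is its start and flanks. The highest SSB densities were in Atp5k, which encodes a small subunit of the ATP synthase, at 1.72 ± 1.12 (SD, n = 12), and in Ndufa4l2, a paralogue of the complex IV subunit Ndufa4, at 1.70 ± 0.61. Cox8b, an isoform gene of cytochrome c oxidase used in heart and skeletal muscle, followed at 1.64 ± 1.63, then Ndufaf3 (complex I assembly) at 1.55 ± 1.08 and Ndufs8 (a core iron-sulphur subunit of complex I) at 1.55 ± 0.99. The windows of Ndufa4l2, Cox8b and Ndufaf3 overlap other protein-coding genes, and positions in the overlap count for both. Of the 5 genes of highest SSB density, Ndufa4l2 alone had an SSB position in all 12 libraries, running from 0.73 through a median of 1.62 to 2.65. Its window held 6 and 12 positions in the bone marrow libraries and 2 and 5 in the sperm libraries. Atp5k was at 0 in 2 of the 12 libraries and at 3.55 in the highest, so that its mean rests on 34 positions. The lowest SSB densities were in Cox7b2 (0.278 ± 0.087), Ndufv2 (a core subunit of complex I, 0.268 ± 0.112) and Ndufb4c (0.048 ± 0.168). Ndufb4c had a single SSB position in all libraries. It and Ndufb4b are copies of Ndufb4 of under 0.5 kb, and reads of such copies may be hard to place, so their values are uncertain. In AP sites the highest were Ndufaf3 (1.63 ± 0.61), Cox8b (1.55 ± 0.83), Ndufs8 (1.26 ± 0.50), Ndufaf8 (complex I assembly, 1.24 ± 0.65) and Ndufa2 (a complex I accessory subunit, 1.19 ± 0.59). The lowest were Atp5pb (a stalk subunit of the ATP synthase, 0.300 ± 0.159), Cox7b2 (0.259 ± 0.055) and Ndufb4c (0.185 ± 0.281).

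The densities of isoform genes of complex IV overlapped between libraries in every set. The SSB density of Cox4i1, the widely expressed form, was 0.753 ± 0.438 (SD, n = 12) and that of Cox4i2, a lung-enriched form, 0.594 ± 0.374. Cox6a1 was at 0.966 ± 0.733 against 0.60 ± 0.67 for its muscle form Cox6a2, and Cox6b1 at 0.495 ± 0.316 against 1.03 ± 1.05 for its testis form Cox6b2. Cox7a1 (muscle), Cox7a2 and Cox7a2l were at 0.681 ± 0.545, 0.450 ± 0.153 and 0.643 ± 0.386, and Cox8a, Cox8b and Cox8c at 1.0 ± 0.66, 1.64 ± 1.63 and 0.905 ± 0.897. Ndufa4 had 0.639 ± 0.452 and Ndufa4l2 1.70 ± 0.61, and their libraries ran from 0 to 1.73 and from 0.73 to 2.65. In complex II, which carries electrons from succinate, Sdha had 0.450 ± 0.211, Sdhb 0.737 ± 0.352, Sdhc 0.444 ± 0.180 and Sdhd 0.741 ± 0.337.

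The lower density belonged to the interiors of the genes and, in most AP libraries, also to their ends, but not to their starts. An annotated start was known for 75 genes, and 60 of them reach over 3 kb from start to end. In these 60, the interior (from 1 kb after the start to 1 kb before the end) had an SSB density of 0.462 ± 0.040 (SD, n = 12), against 0.610 ± 0.034 in the interiors of genes of similar length. The lowest library was at 0.405, the median at 0.457 and the highest at 0.540, whereas the comparison genes ran from 0.561 to 0.686, so the ranges do not overlap. For AP sites the interior was at 0.469 ± 0.027 against 0.60 ± 0.025, with 0.434 as the lowest and 0.510 as the highest library against 0.546 to 0.640. All 12 libraries of each lesion were below their comparison, by a ratio of 0.760 ± 0.079 for SSBs and 0.783 ± 0.063 for AP sites. Without the 3 genes over 50 kb (Ndufs4, Cox7b2 and Ndufaf2, which hold 23.5% of the summed window length) the ratios were 0.774 ± 0.076 and 0.811 ± 0.075, again below 1 in all 12 libraries of each. Gene by gene, 46 of the 60 (76.7%) had an interior below that of genes of similar length in SSBs, against 53.3% of the other 13806 genes, and 42 (70.0%) in AP sites, against 51.8%. Within 1 kb of the end, the summed 60 genes were above genes of similar length in 6 of the 12 SSB and 3 of the 12 AP libraries.

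Within 1 kb of the start the order turned round. The SSB density there was 1.32 ± 0.45 (SD, n = 12) in the respiratory chain genes and 1.1 ± 0.25 in genes of similar length, and it was higher in 10 of the 12 libraries. It ran from 0.667 through a median of 1.31 to 2.43, against 0.818 through 1.11 to 1.65, so these ranges do overlap. The AP density was 0.913 ± 0.183 against 0.794 ± 0.074, also higher in 10 of the 12. Start over interior, the ratio of these densities within a library, was 2.88 ± 1.03 for SSBs against 1.79 ± 0.31, and 1.95 ± 0.39 for AP sites against 1.32 ± 0.07. It exceeded that of genes of similar length in all 12 libraries of both lesions. In 100 bp bins the SSB density of the 60 genes peaked at 3.17 in the bin centred 50 bp after the start, against a peak of 1.75 in genes of similar length. For AP sites the peak was 1.81, centred 50 bp before the start, against 0.966. This AP peak is a single bin of 96 positions, and the bins beside it were at 1.13 and 1.28. Over the 1 kb before and the 1 kb after the start, the mean AP densities were 0.863 and 0.967, against 0.733 and 0.863. From 1 to 2 kb before the start, the SSB density had fallen to 0.471, below the 0.584 of genes of similar length. The AP density there was 0.535 against 0.524.

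**Figure D2:**
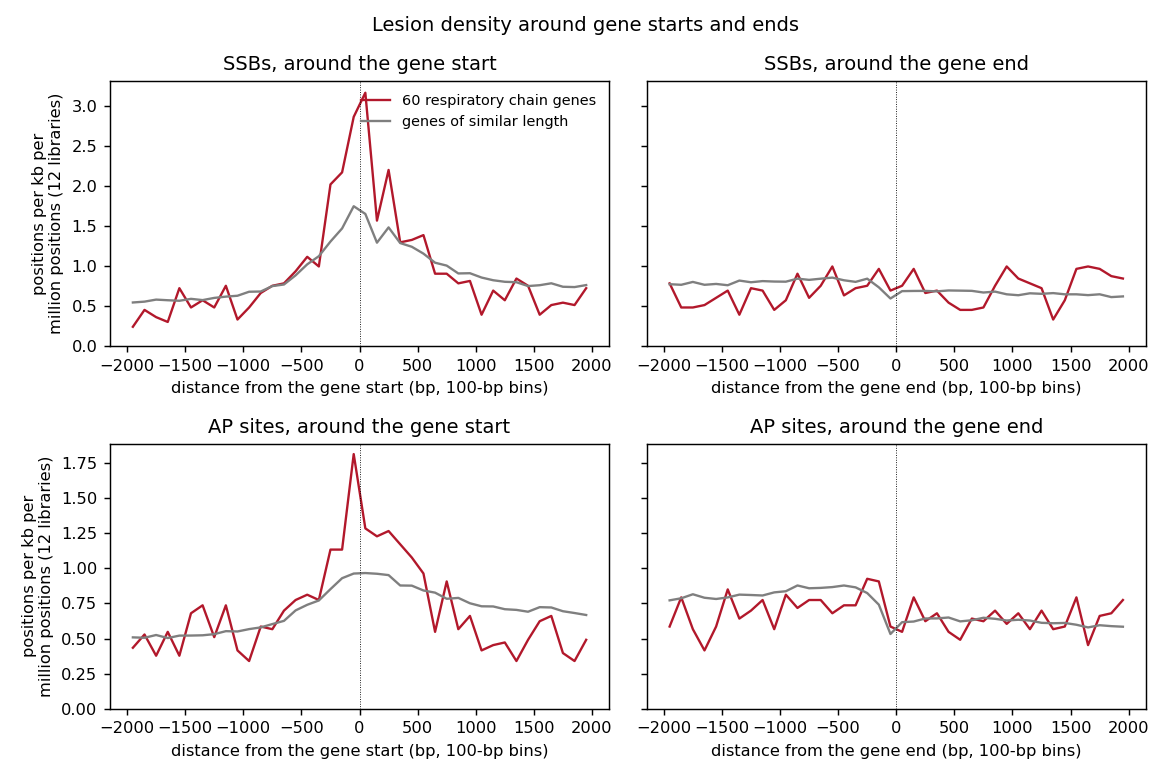
Lesion density in 100 bp bins around the annotated start, for SSBs and AP sites, in the 60 respiratory chain genes and in genes of similar length, over the 12 pooled libraries of each lesion, against the distance from the start in bp. The respiratory chain genes peak at 3.17 for SSBs and 1.81 for AP sites within 100 bp of the start.

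The tissues kept this pattern in different strengths. In SSBs the start over interior ratio was 4.61 ± 0.97 in bone marrow (SD, n = 2 in each tissue), 3.41 ± 0.05 in heart, 2.78 ± 0.46 in liver, 2.42 ± 0.61 in brain, 2.27 ± 0.07 in PBMCs and 1.81 ± 0.41 in sperm. Genes of similar length ran from 2.27 ± 0.19 in bone marrow and 1.94 ± 0.02 in heart down to 1.43 ± 0.0012 in PBMCs and 1.44 ± 0.02 in sperm. The bone marrow libraries (3.92 and 5.29) and the heart libraries (3.38 and 3.45) lay above the other 8. The 2 sperm libraries (1.51 and 2.10) overlap only those of brain. Sperm was also the one tissue whose mean start density in SSBs, 0.782 ± 0.163, was not above the comparison (0.818). Sperm DNA was isolated with another kit than the other tissues, and tissue and kit cannot be told apart. In AP sites the tissues spread less, from 1.63 ± 0.07 in heart to 2.41 ± 0.71 in brain, where the libraries were 1.91 and 2.91.

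**Figure D3:**
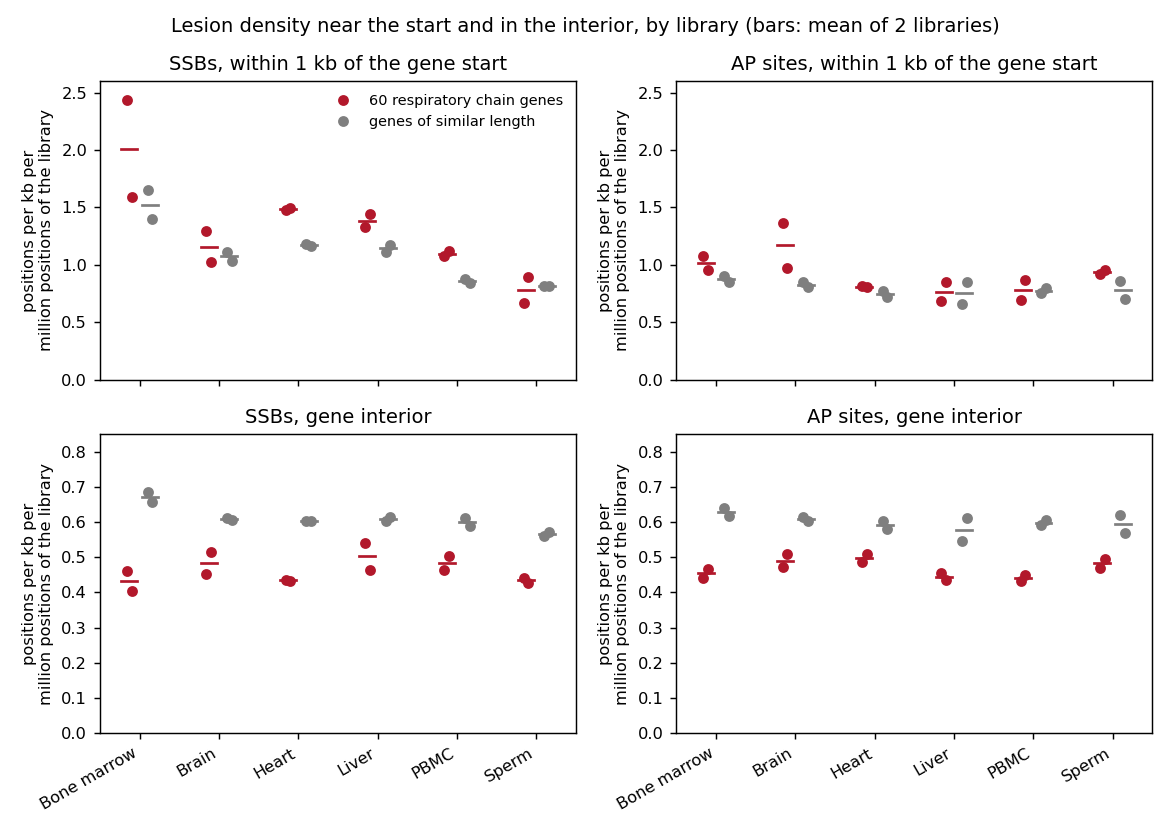
Density of lesion positions within 1 kb of the start (top) and in the interior (bottom) of the 60 respiratory chain genes and of genes of similar length, by tissue, with 1 point per library and a bar for the mean of 2 libraries. In the interior, every library of the respiratory chain genes lies below its comparison for both lesions, and near the start the bone marrow SSB libraries are highest, at 1.59 and 2.43.

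CpG-rich promoters were compared among themselves, since they are more common in the list. Among genes with a CpG-rich promoter the 50 respiratory chain genes had a start density of 1.32 ± 0.43 (SD, n = 12) in SSBs, against 1.38 ± 0.42, and were higher in 4 of the 12 libraries. The excess of SSBs near the start was therefore not seen within this class. AP sites there were at 0.926 ± 0.20 against 0.849 ± 0.107, higher in 9 of the 12. The interiors kept their lower density within the class, at 0.495 ± 0.051 against 0.683 ± 0.047 in SSBs and 0.524 ± 0.032 against 0.661 ± 0.039 in AP sites, lower in all 12 libraries of each. The 10 genes with other promoters had a start density of 1.33 ± 0.64 in SSBs against 0.877 ± 0.113, higher in 10 of the 12 libraries, and an interior of 0.390 ± 0.049 against 0.536 ± 0.014, lower in all 12. What part the promoter class has in the values of the list was not tested further.

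To ask which genes had a start density above their own interior, edgeR's quasi-likelihood test was fitted over all genes with a start and an interior, with the tissue as a term and p-values adjusted by the method of Benjamini and Hochberg. In SSBs, 26 of the 60 respiratory chain genes (43.3%) passed an adjusted p of 0.05, all of them higher near the start. Over all 13713 genes tested, 33.8% were called and 32.8% were called higher. In AP sites 15 of the 60 (25.0%) were called, all higher, against 17.3% of 13748 called and 15.3% called higher. The median log2 difference was 1.24 in the list against 0.79 over all genes for SSBs, and 0.76 against 0.35 for AP sites. Without a test, 57 of the 60 genes (95%) had a start density above their interior in SSBs, against 72.8% of genes of similar length, and 47 (78.3%) in AP sites, against 58.9%. In complex I, the SSB calls comprised 10 of 24 accessory subunits, 3 of 5 assembly factors and 2 of 5 core subunits. They comprised 1 of 3 genes of complex II (Sdha), 1 of 4 of complex III (Uqcrfs1), 4 of 7 of complex IV (Cox5a, Cox6a1, Cox7a2 and Cox7a2l) and 5 of 12 of complex V. The AP calls comprised 8, 1 and 2 of the same classes of complex I, 1 of complex II (Sdhd), 3 of complex V and none of complexes III and IV. The genes called in both lesions were Atp5md, Atp5pb, Ndufa10, Ndufaf5, Ndufb1, Ndufb3, Ndufb6, Ndufs3, Ndufs4 and Ndufv2.

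**Figure D4:**
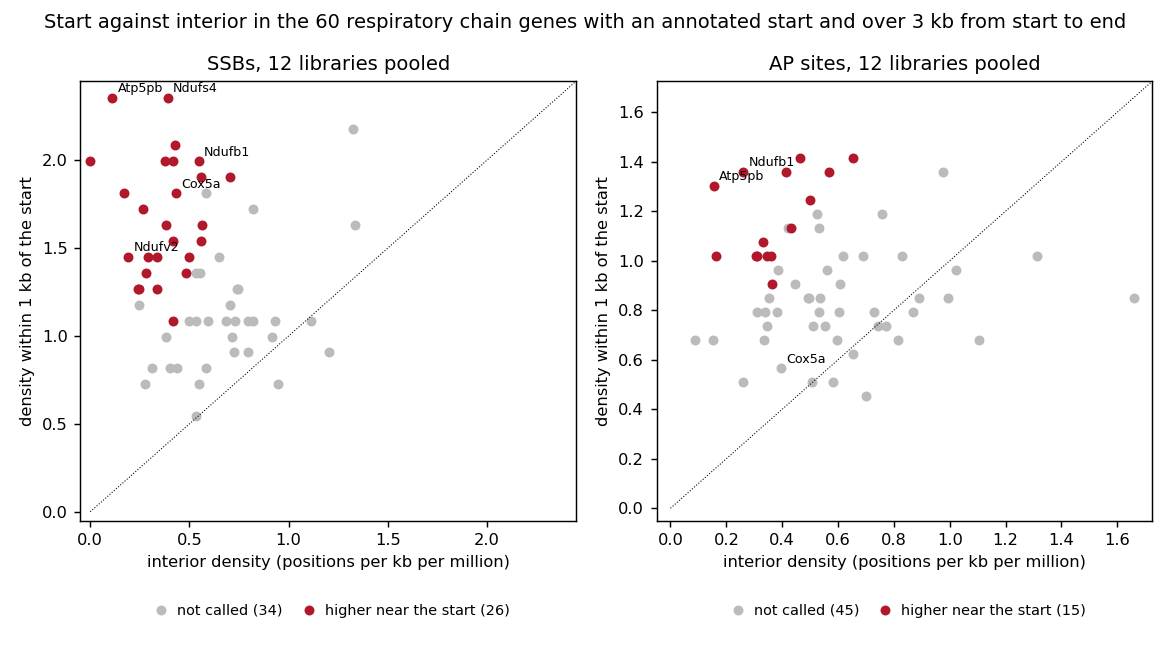
Density of lesion positions within 1 kb of the start against that in the interior for each of the 60 respiratory chain genes, pooled over the 12 libraries of each lesion, on the density scale given above, with red points for genes that passed the edgeR test and a dotted line of equal density. Red points number 26 for SSBs and 15 for AP sites, and all lie above the line.

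Atp5pb, a subunit of the peripheral stalk of the ATP synthase, had the smallest p in both lesions. Its 2 kb around the start held 26 SSB positions over the 12 libraries (0 in the lowest, a median of 2 and 6 in the highest), whereas its interior, several times longer, held 9. The start window had a position in 11 of the 12 libraries and the interior in 5. The span of Atp5pb with 1 kb on each side overlaps another protein-coding gene, Wdr77, whose part in these counts was not separated. The log2 difference in density was 4.04 ± 0.51 (SE, edgeR, adjusted p = 2e-12) for SSBs and 2.91 ± 0.48 (edgeR, adjusted p = 4.3e-07) for AP sites, where the start held 23 positions and the interior 20. Ndufs4, an accessory subunit whose loss causes complex I deficiency, is one of the longest genes of the list at 100300 bp. It had 26 SSB positions in the start window (0 to 8 per library, median 1.5) against 212 in the interior (5 to 34, median 17.5), a log2 difference of 2.57 ± 0.39 (edgeR, adjusted p = 4.7e-09). The window was empty in 3 of the 12 libraries, so the difference comes from the sum and not from each library.

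Ndufv2, which carries an iron-sulphur cluster at the entry of electrons into complex I, had 16 SSB positions near the start (0 to 5, median 1) and 22 in the interior (0 to 4, median 2). Its log2 difference was 2.75 ± 0.54 (edgeR, adjusted p = 9.6e-06). In AP sites the next smallest p after Atp5pb were in Ndufb1 and Ndufb3, accessory subunits of the membrane arm. Ndufb1 had 24 AP positions near the start (0 to 4, median 2) and 13 in the interior (0 to 3, median 1), and Ndufb3 had 18 (0 to 5, median 1) and 11 (0 to 2, median 1). Their log2 differences were 2.20 ± 0.49 and 2.39 ± 0.55, with edgeR adjusted p of 0.00028 and 0.00044. Single libraries thus hold few positions of a gene, and the per-gene calls rest on sums over libraries. Cox6a1 is the extreme case, with 22 SSB positions near its start and none in its short interior.

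The start must be the annotated one for this comparison to hold in each gene. In 4 genes, Atp5g3, Cox5a, Cox7a2 and Atp5d, the RefSeq start used here lies over 1 kb inside the span of the gene, by 1138, 3904, 11569 and 3577 bp. When the end of the span was taken as the start in every gene, a setting added after the data were seen, 61 genes entered, 27 were called in SSBs, and 2 of these, Atp5g3 and Cox5a, were lower near that end. Over all genes 4299 of 13823 were called at that setting, 230 of them lower. With the annotated start Cox5a, a subunit of cytochrome c oxidase, was higher near the start (log2 1.93 ± 0.48, edgeR adjusted p = 0.0005), and Atp5g3 had under 3 kb left and was not tested.

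The start windows alone were compared across tissues, and no respiratory chain gene was called in SSBs. The edgeR test gave 0 of 60 across the 6 tissues and 0 of 60 for sperm against the other 5, beside 0% of the 13048 genes tested in each case. At an unadjusted p under 0.05 the counts were 0 and 1 of the 60, against 2.47% and 2.09% of all genes. This fit scaled the start windows of the libraries to each other by TMM, so a difference shared by most genes is partly removed. It also measured start density and not start over interior. It therefore cannot tell whether single genes carry the differences in strength between tissues given above, which are values of the summed list.

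On whole windows no respiratory chain gene passed the test between tissues. In SSBs edgeR called 0 of 92 genes across the 6 tissues, 0 in heart and 0 in sperm against the other 5 tissues, beside 0.631%, 0% and 0.377% of the 20140 genes tested. At an unadjusted p under 0.05 there were 2, 6 and 4 of the 92 by edgeR (2.17%, 6.52% and 4.35%, against 7.69%, 5.66% and 7.52% of all genes). By DESeq2, which also called none of the 92 after adjustment, there were 0, 1 and 2, against 1.26%, 0.497% and 2.41% of all genes. In AP sites edgeR called 0 of 93 in the same 3 comparisons, beside 0% of 20311 genes in each, with 4, 5 and 3 at an unadjusted p under 0.05 (4.30%, 5.38% and 3.23%, against 3.81%, 4.60% and 4.23% of all genes). By DESeq2 0, 2 and 2 had an unadjusted p under 0.05, against 0.123%, 0.473% and 0.369% of all genes. The smallest p across tissues and in sperm for SSBs was that of Atp5o, which encodes the OSCP subunit that joins the stalk to the head of the ATP synthase. Atp5o had no SSB position in either sperm library and 1 to 13 in the other 10, from a density of 0.27 in a heart library to 2.40 in a liver library. The sperm libraries were thus below every other library in SSBs, though not in AP sites, where they held 6 positions each, and the edgeR adjusted p was 0.23 in sperm and 0.42 across tissues. Atp5d, another ATP synthase subunit, followed in sperm with an edgeR adjusted p of 0.28 and no SSB position in its window there either. It had a position in 9 of the 12 SSB libraries, so sperm libraries were not the only empty ones. Cox8b was at 3.04 and 3.07 in sperm against 0 to 5.07 elsewhere (edgeR adjusted p = 0.60), so its groups overlap. In heart, the tissue richest in respiratory chain, the smallest p for SSBs was that of Ndufb1 (log2 1.43 ± 0.51, edgeR adjusted p = 0.80), followed by Ndufv1 and Uqcrfs1. For AP sites the genes with the smallest p were Ndufb10, Cox7b2 and Atp5e in heart, Ndufs7, Cox6a2 and Ndufb4b in sperm, and Ndufs7, Uqcrfs1 and Ndufs6 across tissues, with edgeR adjusted p that rounded to 1 throughout.

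Nor were the lesions told apart gene by gene within the list. Between SSB and AP libraries 0 of 93 genes were called by edgeR, beside 2.86% of 20314 genes (183 higher in SSBs and 397 higher in AP sites). That balance turned without TMM, to 298 and 113, and 20 genes were called at equal depth. At an unadjusted p under 0.05 there were 9 of the 93 by edgeR and 4 by DESeq2, against 15.1% and 10.2% of all genes. Ndufa4l2 had the smallest p, with an SSB density of 0.73 to 2.65 (median 1.62) against an AP density of 0.44 to 1.39. Its log2 difference was 0.66 ± 0.23 (edgeR adjusted p = 0.11), and the ranges of the lesions overlap. Cox6a1 (log2 1.1 ± 0.43) and Ndufaf2, an assembly factor of complex I (log2 -0.27 ± 0.11), came next with edgeR adjusted p of 0.16 and 0.18. The start over interior difference was also compared between lesions, and edgeR called 0 of 60 genes, beside 2.22% of 13748, with 5 of the 60 (8.33%) at an unadjusted p under 0.05 against 16.8% of all genes. The 305 genes called over all fell to 131 without the second heart SSB library and to 147 without the first bone marrow SSB library. Ndufs8, Ndufb2 and Ndufaf7 had the smallest p there (edgeR adjusted p = 0.19 to 0.21).

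Lesions were also split by strand within the interiors. In SSBs 41.4 ± 5.9% (SD, n = 12) of the interior positions of the 60 genes were listed on the strand opposite to the gene, from 33.8% through a median of 42.7% to 50%, against 46.1 ± 1.1% in genes of similar length. The share was below that of the comparison in 8 of the 12 libraries, so the libraries overlap it. In AP sites the shares were 49.1 ± 4.2% and 49.9 ± 0.4%. In SSBs edgeR called 1 of the 57 genes tested, beside 6.35% of 13535 called and 6.21% called higher on the strand of the gene, and 5 of the 57 (8.77%) had an unadjusted p under 0.05, against 18.6% of all genes. The gene called was Ndufs4, with 132 of its 212 interior SSB positions on its own strand (log2 0.71 ± 0.21, edgeR adjusted p = 0.016). Leaving out the second heart library took its adjusted p to 0.0501, and leaving out any other SSB library kept it under 0.05. Ndufaf5 and Ndufa12 came next, with edgeR adjusted p of 0.094 and 0.096. In AP sites 0 of 59 were called, beside 0.0878% of 13660 called and 0.0659% called higher on the strand of the gene, with 2 of the 59 (3.39%) at an unadjusted p under 0.05, against 8.92% of all genes.

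A further 45 genes of the pathway that the symbol rule does not take were read from the same fits: cytochrome c, assembly factors of complexes I to V, carriers, and regulators of mitochondrial genes. Across tissues, in heart and in sperm none of the 45 was called by edgeR in either lesion, although 1 was called across tissues in SSBs under 5 of the alternative settings. Between lesions 1 was called, Ppargc1a, a coactivator that drives mitochondrial biogenesis, with fewer SSBs than AP sites relative to other genes (log2 -0.21 ± 0.06, edgeR adjusted p = 0.015), a call that was lost without TMM and at equal depth. Near the start against the interior 18 of the 34 tested (52.9%) were called in SSBs, all higher, against the 32.8% called higher over all genes. Etfdh, which feeds electrons from fatty acid oxidation into ubiquinone, had the smallest p (log2 3.17 ± 0.47, edgeR adjusted p = 1.2e-09). Taco1, a translational activator of complex IV, and Gabpa, the DNA-binding subunit of the regulator GABP, followed with 2.75 ± 0.49 and 2.25 ± 0.42. In AP sites 8 of the 34 (23.5%) were called, 7 higher and 1 lower, against 17.3% of all genes. Sdhaf3, an assembly factor of complex II, was the highest of these (log2 3.0 ± 0.51, edgeR adjusted p = 8.4e-07) and Bcs1l, which inserts the Rieske protein into complex III, the one that was lower (log2 -1.62 ± 0.47, edgeR adjusted p = 0.0078). Bcs1l was higher near the start in SSBs (log2 1.70 ± 0.48), and the difference between the lesions passed the test itself (log2 3.30 ± 0.67, edgeR adjusted p = 0.0024). Cox19, Atpaf2, Oxa1l and Sco1 were the other 4 of the 34 called in that comparison of lesions, so that 14.7% were called against 2.22% of all genes. With the library in place of the tissue as a term, 3 were called in all. By strand 3 of the 34 were called in SSBs, Uqcc1, Nubpl and Lrpprc, all higher on the strand of the gene, a share (8.82%) close to the 6.35% of all genes called.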

How the data were processed

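Single-nucleotide lesions were mapped by the authors by sequencing (SSiNGLe for SSBs, SSiNGLe-AP for AP sites) on build mm10/GRCm38 and deposited as lists of single bases with the strand and the count of reads at each. The aligner and filters are not given in the sources used here. Sperm DNA was extracted with another kit than that of the other 5 tissues. The 12 RNA samples were not analysed here.

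The members and gene lists were chosen with earlier results of these data known. Each position was counted once in the gene span with 1 kb on each side. Counts were tested with edgeR 4.0.16 in R 4.3.3 (quasi-likelihood, TMM, all positions of the library as its size, genes with a position in at least 20% of the libraries, Benjamini-Hochberg, 0.05), with DESeq2 1.42.0 as an alternative. Regions and strands within a gene were compared with tissue as a term and width and library total as offsets. Start windows were compared across tissues with TMM and without these offsets. The whole-window fits and the SSB fit of start against interior were checked on simulated counts. Changes were set only into genes with higher expected counts than most genes of the list have, so the check does not cover most of the list. Genes named are those of extreme density, called or of smallest p, isoform genes, Sdha to Sdhd, and the longest and shortest. Other genes named were chosen after their values were seen. Gene starts, and the 75 promoters, are those of RefSeq nearest to the end of the span.

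The labels tie SSB and AP libraries to the same tissue sample, but their deviations correlated at only -0.0102 to 0.0176 over 6 tissues. Between tissues, samples of the same number correlated at -0.036 to 0.022 (SSBs) and -0.13 to 0.079 (AP sites), and the labels do not say that a number is an animal. The extraction protocol in the labels names 2 male mice as the source of the 6 tissues, and p-values measure only the spread between these samples. Positions per library limit precision, and counts of positions cover counting error only.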

Additional observations from a re-analysis of the deposited data

Results flagged for a closer look

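In 2 quantities the libraries of some tissues all lay on opposite sides of genes of similar length, and these differences between tissues were not tested. The SSB density within 1 kb of the gene end, divided by that of genes of similar length, was above 1 in both PBMC libraries (mean 1.15) and below 1 in both heart libraries (mean 0.906). The share of interior AP positions listed on the strand opposite to the gene, divided the same way, was above 1 in both brain libraries (mean 1.1) and below 1 in both libraries of bone marrow (mean 0.915) and of PBMCs (mean 0.96).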

How the results depend on the processing

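No alternative called a respiratory chain gene across tissues, in heart, in sperm or between lesions on whole windows, and the value was 0 with each library left out. Over all genes, however, the SSB calls across tissues fell from 127 to 50 with DESeq2, 17 without TMM, 35 at equal depth, 48 with all biotypes and 17 without bone marrow replicate 1, and those of sperm from 76 to 44, 9, 31 and 7 under the first 4 and 42 without flanks, and to 4 and 17 without sperm replicate 1 and 2. Between lesions 580 calls fell to 346 with DESeq2, to 20 at equal depth, to 369 without heart SSB replicate 2 and to 355 without bone marrow SSB replicate 1, and without TMM the 411 calls were 298 higher and 113 lower in SSBs. The ratio of the list to genes of similar length moved to 1.28 (SSBs) and 1.18 (AP sites) against the sequence 10 to 60 kb outside each window, thus above 1, and to 1.0 and 0.967 as a mean over genes. Without the longest 10% of the genes the SSB ratio was 0.957, and without flanks the AP ratio was 0.826. With each library left out the ratios were 0.890 to 0.907 and 0.863 to 0.875, start over interior was 2.66 to 3.01 and 1.87 to 1.99, and the share on the other strand was 40.6 to 42.1% and 48.5 to 49.7%. Within 500 bp of the start, start over interior rose to 3.97 and 2.48, and calls to 34 and 22 of 60. Over all genes 4777 of 13689 and 2253 of 13742 were called at that setting. With each library left out 20 to 28 genes were called near the start in SSBs (3707 to 4600 over all genes) and 10 to 14 in AP sites (1910 to 2253). By strand 0 to 2 were called in SSBs (588 to 806 over all genes), the further genes being Ndufa10, Ndufa12 and Ndufaf5. The comparison of start over interior between lesions called 1 gene at 500 bp, beside 347 of 13738 over all genes, and 0 otherwise. With the replicate number as an added term, or the tissue sample as a block between lesions, calls on whole windows were 0. In the fits of regions and strands the library took the place of the tissue as a term. This pairs the regions or strands of a library, a pairing that the main fits leave out. Calls were then 26 and 14 near the start (4192 and 2113 over all genes), 1 by strand in SSBs (779 over all genes) and 0 between lesions in start over interior. The calls over all genes in the last fell from 305 to 176, while those by strand in AP sites rose from 12 to 26. Calls in other genes of the pathway in start over interior between lesions fell from 5 to 3. Apart from these, the changed terms moved no count of respiratory chain or pathway genes called by over 1.5 times. Over all genes, SSB calls lower near the start went from 131 to 86 with the library as a term. The region fits, the annotated start, the promoter classes and the settings without genes over 50 kb were chosen after seeing the data, and the cause of each move was not tested. Depth limits single genes to a median of 39 SSB and 54 AP positions over 12 libraries.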
